A study of Mus musculus with 12 samples.

Results

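Nodal, Lefty1, Lefty2, Tdgf1, Bmp4, Id1, Id2, Id3 and Smad7 are genes of the Nodal and BMP signalling pathways, and their mRNA was followed over 12 libraries of mouse embryonic stem cells. They were chosen by gene symbol, and all 9 were found among the 23354 genes that the libraries shared. The cells were stable lines of the J1 strain, grown on inactivated mouse embryonic fibroblast (MEF) feeder cells in medium with serum and leukemia inhibitory factor, and 2 libraries were made in each of 6 groups. In the overexpression arm, lines carried H3.1K36M or H3.1K9M, histone H3.1 with lysine 36 or lysine 9 replaced by methionine, or the wild-type histone H3.1WT as their control. In the knockdown arm, lines carried a short hairpin RNA against Suv39h1 or against Suv39h2, which encode methyltransferases of lysine 9 of histone H3, or the hairpin shNC, read here as the non-targeting control. The sources used here do not state which promoter drives the transgenes, how many clones each line came from, or whether feeder cells were taken out before the RNA was prepared.

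Nodal is a secreted ligand of the TGF-beta family. It signals through activin receptors with the help of the co-receptor TDGF1 (Cripto), and the receptors activate SMAD2 and SMAD3, which act on DNA with partners such as FOXH1. The LEFTY proteins block Nodal and are themselves induced by it, so they form a feedback loop that shapes the early embryo. BMP4 signals through SMAD1 and SMAD5, and in mouse embryonic stem cells it works with leukemia inhibitory factor to keep the cells from neural differentiation, in part by inducing the Id genes. ID proteins bind E proteins and keep them off DNA, while SMAD7, induced by both branches, inhibits the receptors.

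The values were FPKM, fragments per kilobase of transcript scaled to sequencing depth, so levels of different genes can be set side by side. All 9 genes were expressed in every library. Tdgf1 had the highest level, at 242.9 to 459.7 FPKM over the 12 libraries, above 98.6% of the 13109 genes tested. Lefty2 (69.4 to 177 FPKM), Lefty1 (39.6 to 125), Id3 (45.1 to 92.1) and Id1 (36.6 to 88.8) formed a middle range. Nodal (18.7 to 40.3 FPKM), Smad7 (17.3 to 30.1), Bmp4 (8.67 to 20.6) and Id2 (6.88 to 14.6) were lower. Id2 stood near the middle of all tested genes, above 50.7% of them.

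The embryonic stem cell label was checked with 8 markers, Pou5f1, Sox2, Nanog, Zfp42, Esrrb, Klf4, Dppa5a and Utf1. All were above 0 in every library, and their summed level was 3132 to 5087 FPKM. Of 25 fibroblast feeder markers at most 1 was at 0 in any library. Their summed level was 1125 to 1153 FPKM in H3.1K36M, 798 to 1722 in H3.1K9M and 494 to 894 in H3.1WT, and it was 381 to 645 FPKM in shSuv39h1, 662 to 825 in shSuv39h2 and 560.5 to 863 in shNC. Replicates stood farthest apart in H3.1K9M, where the log2 difference between them had an SD over all tested genes of 0.41, against 0.345 in shNC, 0.26 in H3.1WT and 0.223 to 0.235 in the other groups. In such bulk RNA, fewer cells of a type and less RNA per cell cannot be told apart. As for the targeted transcripts, Suv39h1 had 4.91 and 5.10 FPKM in shSuv39h1, against 8.58 and 7.52 FPKM in shNC, a difference that did not pass the limma test (adjusted p = 0.0877). Suv39h1 was also lower in H3.1K36M, at a mean of 7.25 FPKM, against 11.3 in H3.1WT (limma adjusted p = 0.0163) and 11.1 in H3.1K9M (adjusted p = 0.0127). Suv39h2 fell to 1.61 and 1.76 FPKM in shSuv39h2, against 4.797 and 4.782 FPKM in shNC (limma adjusted p = 0.000304).

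On GRCm38, Nodal lies on the plus strand at chr10:61417972-61425338. Lefty2 (chr1:180893108-180899103) and Lefty1 (chr1:180935022-180938400) are neighbours on the plus strand of chromosome 1, 35919 bases apart. Tdgf1 lies at chr9:110939603-110946158 and Bmp4 at chr14:46383520-46390669, both on the minus strand. Id1 lies at chr2:152736251-152737410 and Id3 at chr4:136143497-136145755 on the plus strand, and Id2 at chr12:25093799-25097140 on the minus strand. RefSeq promoter entries (GRCm38.p6) were used for 5 of the 9 genes, Nodal, Tdgf1, Bmp4, Id2 and Id3. None was matched for Lefty1, Lefty2 or Id1, and the promoter of Smad7 was left out of the search.

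The 250 bases before the start were searched on both strands for CAGAC, the SMAD box, for GGCGCC, a GC-rich SMAD site, for AATCCACA, a FOXH1 site, and for ATTTGCAT, the octamer bound by POU factors. CAGAC occurred in 42.2% of 32851 RefSeq promoters of that length, GGCGCC in 9.6%, AATCCACA in 0.7% and ATTTGCAT in 1.6%. The ligand and co-receptor promoters are shown, and no annotated UTR overlaps these windows. Capitals mark a match, and each sequence runs 5′ to 3′ on the strand of its gene, from chr10:61417722-61417971 on the plus strand for Nodal, chr9:110946159-110946408 on the minus strand for Tdgf1 and chr14:46390670-46390919 on the minus strand for Bmp4.
Nodal: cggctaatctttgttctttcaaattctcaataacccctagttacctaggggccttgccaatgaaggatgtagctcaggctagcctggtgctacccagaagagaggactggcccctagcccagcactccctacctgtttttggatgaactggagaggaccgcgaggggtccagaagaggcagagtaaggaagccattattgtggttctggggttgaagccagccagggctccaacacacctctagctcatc
Tdgf1: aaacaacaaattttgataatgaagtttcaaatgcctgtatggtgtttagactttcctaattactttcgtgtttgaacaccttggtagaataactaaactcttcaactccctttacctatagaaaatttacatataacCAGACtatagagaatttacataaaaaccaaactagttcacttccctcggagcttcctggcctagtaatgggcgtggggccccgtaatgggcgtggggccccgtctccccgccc
Bmp4: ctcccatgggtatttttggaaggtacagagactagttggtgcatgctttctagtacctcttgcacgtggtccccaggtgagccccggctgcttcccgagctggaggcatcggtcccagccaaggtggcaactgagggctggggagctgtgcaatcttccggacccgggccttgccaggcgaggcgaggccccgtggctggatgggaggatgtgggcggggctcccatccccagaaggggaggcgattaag
Tdgf1 held 1 CAGAC, whose first base lies 113 bases before the start. Nodal and Bmp4 held none of the 4 motifs in this window. The Id2 window (chr12:25096093-25096342) and the Id3 window (chr4:136143572-136143821) end at a RefSeq start that lies inside the gene spans given above, overlap an annotated UTR and are not shown. The Id2 window held 1 GGCGCC, 231 bases before the start, and the Id3 window held CAGAC 167 bases before the start and again, on the other strand, 68 bases before it. GC content was 53.2% in the Nodal window, 42% in Tdgf1, 63.2% in Bmp4 and 62.8% in both Id2 and Id3, where the median promoter had 52.4%.

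Which of the 9 genes differed between the groups was asked in 7 comparisons, with limma on log2(FPKM + 1) and adjustment by Benjamini-Hochberg over all 13109 tested genes. Of these 63 tests 1 passed at an adjusted p under 0.05, since Id1 rose in shSuv39h2 over shNC. In that comparison 10% of all tested genes passed, 5.35% in the upward and 4.69% in the downward direction. None of the 9 passed in H3.1K36M over H3.1WT, where 4.84% of all tested genes did, in H3.1K9M over H3.1WT (0.313%), in H3.1K36M over H3.1K9M (8.24%), in shSuv39h1 over shNC (0.145%), in shSuv39h1 over shSuv39h2 (6.56%) or in H3.1WT over shNC (0.336%).

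At an unadjusted p under 0.05 the 9 genes gave 2 differences in H3.1K36M over H3.1WT (Lefty2 and Smad7, where 20.8% of tested genes met that limit) and 2 in H3.1K9M over H3.1WT (Bmp4 and Smad7, background 11.2%). There were 5 in H3.1K36M over H3.1K9M (Nodal, Lefty2, Bmp4, Id1 and Id2, background 23.2%). In the knockdown arm there were 3 in shSuv39h2 over shNC (Lefty1, Bmp4 and Id1, background 25.8%), 1 in shSuv39h1 over shNC (Id1, background 10.6%) and 0 in shSuv39h1 over shSuv39h2 (background 21.7%). The control groups, H3.1WT over shNC, gave 1 (Id1, background 11.4%). The median log2 fold change of the 9 genes lay within −0.15 and 0.13 in all 7 comparisons, and that of all tested genes within −0.01 and 0.04.

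**Figure D1:**
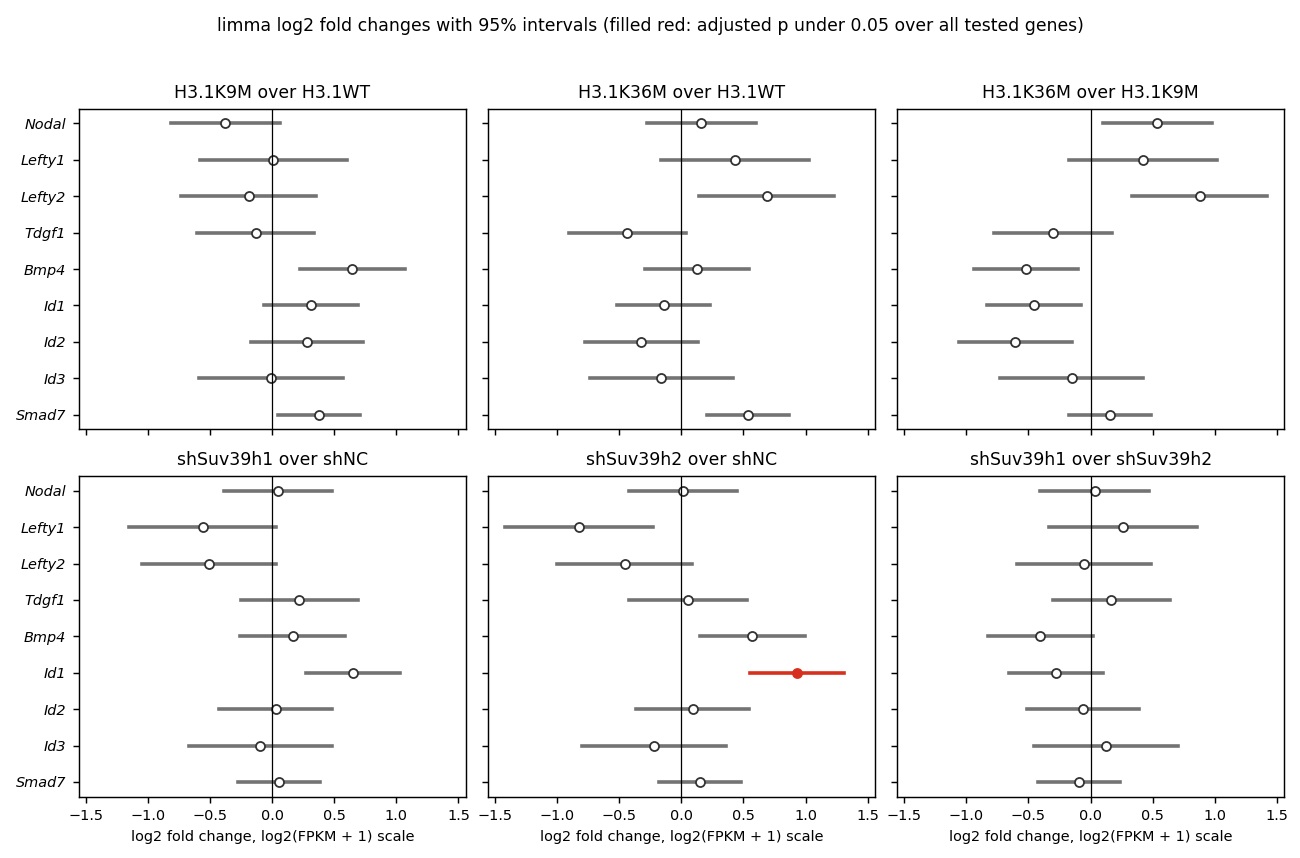
Log2 fold changes of the 9 genes on the log2(FPKM + 1) scale (x axis) in 6 comparisons, each with its 95% interval from limma; the vertical line marks no difference. The filled red point, Id1 in shSuv39h2 over shNC at 0.93, is the 1 value past the adjusted p threshold of 0.05.

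Nodal, the ligand, was at 36.3 and 35.5 FPKM in H3.1K36M and at 31.7 and 18.7 FPKM in H3.1K9M, against 30.9 and 33.1 FPKM in H3.1WT. In the knockdown arm it was at 36.8 and 37.4 FPKM in shSuv39h1 and at 35.1 and 37.4 in shSuv39h2, against 31.9 and 40.3 in shNC. The low value is replicate 2 of H3.1K9M alone, since its replicate 1 lies between both H3.1WT libraries, and all 4 hairpin libraries lie between those of shNC. For shSuv39h2 over shNC the log2 fold change was 0.01 with a 95% interval of −0.42 to 0.45, and for shSuv39h1 over shNC it was 0.05 (−0.39 to 0.48). In H3.1K36M over H3.1K9M it was 0.54 (SE 0.195, limma adjusted p = 0.132), and without replicate 1 of H3.1K9M, which leaves that group with its low library, it was 0.90 and passed (adjusted p = 0.00419). Without replicate 2 of H3.1K9M it was 0.17, and with the mean level of the feeder markers as covariate it was 0.49 and passed (adjusted p = 0.034). By group mean the order was shSuv39h1, shSuv39h2, shNC, H3.1K36M, H3.1WT and H3.1K9M, where H3.1K36M and H3.1WT were the only neighbours whose libraries did not overlap.

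By group mean both Lefty genes were highest in H3.1K36M and lowest in the hairpin lines against Suv39h1 and Suv39h2. Lefty2 was at 176.7 and 170.35 FPKM in H3.1K36M and at 119 and 74.2 in H3.1K9M, against 103 and 112 in H3.1WT. Lefty1 was at 125 and 122 FPKM in H3.1K36M and at 120.6 and 69.8 in H3.1K9M, against 89.0 and 93.3 in H3.1WT. Both H3.1K36M libraries thus stood above all other libraries for both genes, while the H3.1K9M libraries straddled those of H3.1WT. The Lefty2 log2 fold change was 0.69 in H3.1K36M over H3.1WT (SE 0.242, limma adjusted p = 0.149), a ratio of means of 1.61, and 0.88 over H3.1K9M (SE 0.242, adjusted p = 0.056). For Lefty1 these values were 0.43 (SE 0.265, adjusted p = 0.389) and 0.42 (adjusted p = 0.377). Lefty2 over H3.1K9M passed without replicate 1 of H3.1K9M (1.21, adjusted p = 0.017) and without 1 or the other shNC library, and with the mean of the feeder markers as covariate (adjusted p = 0.0208). Without replicate 2 of H3.1K9M it was 0.54 and did not pass. The covariate brought the Lefty2 difference between H3.1K36M and H3.1WT to 0.33 and that of Lefty1 to 0.07. In a fit over H3.1K36M and H3.1WT alone both passed (Lefty2 adjusted p = 0.00427, Lefty1 adjusted p = 0.00995), and with array weights Lefty2 did (adjusted p = 0.00639).

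In the knockdown arm Lefty1 was at 55.2 and 60.8 FPKM in shSuv39h1 and at 39.6 and 58.6 in shSuv39h2, against 69.8 and 105.7 in shNC. Lefty2 was at 72.5 and 81.4 FPKM in shSuv39h1 and at 69.4 and 91.8 in shSuv39h2, against 87.9 and 137 in shNC. All 4 hairpin libraries lay below both shNC libraries for Lefty1, and for Lefty2 those of shSuv39h1 did so, while 1 library of shSuv39h2 stood above the lower shNC library. Lefty1 had a log2 fold change of −0.82 in shSuv39h2 over shNC (SE 0.265, limma adjusted p = 0.0834), 55.9% of control, and of −0.56 in shSuv39h1 over shNC (adjusted p = 0.505). It passed in shSuv39h2 with the feeder covariate (−0.82, adjusted p = 0.0312) and without 1 or the other H3.1K9M library. Both hairpin comparisons share the shNC libraries, whose replicate 2 stood 1.51 times above replicate 1 for Lefty1 and 1.56 times for Lefty2. These values moved with which shNC library was kept: without replicate 1 of shNC the Lefty1 change in shSuv39h2 was −1.12, and without replicate 2 it was −0.53.

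The ratio of Lefty2 to Lefty1, taken within each library, varied less between replicates than the levels did. It was 1.41 and 1.40 in H3.1K36M and 0.987 and 1.06 in H3.1K9M, against 1.16 and 1.20 in H3.1WT, and it was 1.31 and 1.34 in shSuv39h1 and 1.75 and 1.57 in shSuv39h2, against 1.26 and 1.30 in shNC. Libraries of a group stood next to each other in this ratio, with shSuv39h2 the highest and H3.1K9M the lowest. The ratio was looked at after its values were seen, and no test was run. The transcripts share sequence, since 97 stretches of 100 bases occur in both genes (5.9% of those in Lefty1 and 3.9% in Lefty2), so reads from these stretches could be assigned to either.

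**Figure D2:**
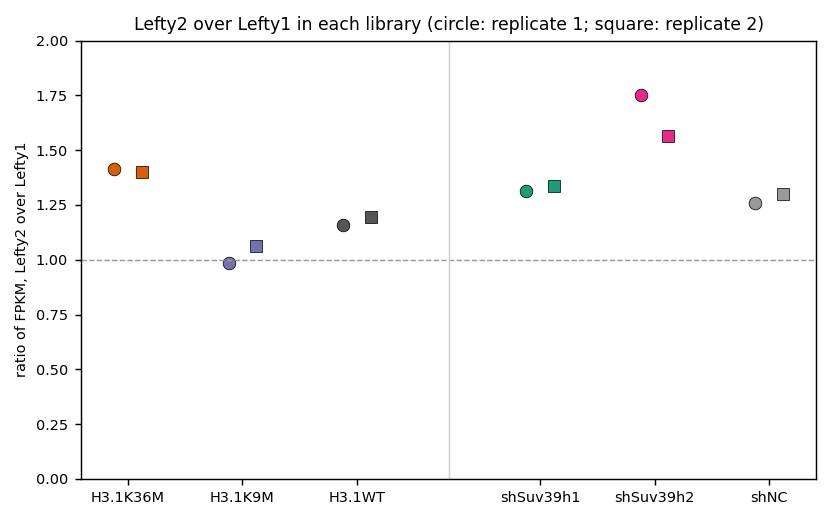
Ratio of Lefty2 to Lefty1 FPKM in each of 12 libraries (y axis, from 0; circles are replicate 1 and squares replicate 2), with the groups on the x axis and a dashed line at a ratio of 1. Both shSuv39h2 libraries lie at the top, at 1.75 and 1.57, and both H3.1K9M libraries nearest to 1, at 0.987 and 1.06.

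Tdgf1, the co-receptor, was at 260.1 and 255 FPKM in H3.1K36M and at 243 and 417 in H3.1K9M, against 372 and 327 in H3.1WT. It was at 413 and 459.7 FPKM in shSuv39h1 and at 401 and 376.4 in shSuv39h2, against 420.7 and 333 in shNC. H3.1K36M lay below both H3.1WT libraries, and replicate 1 of H3.1K9M was lower still, while its replicate 2 was above H3.1WT. The log2 fold change in H3.1K36M over H3.1WT was −0.44 (SE 0.211, limma adjusted p = 0.276). Tdgf1 ran against the feeder markers: over the 12 libraries Pearson's r with the mean log2 level of the 25 markers was −0.90 (Spearman −0.83), −0.84 without the 2 libraries farthest from the median, −0.86 within the overexpression arm and −0.88 within the knockdown arm. Both values of a point come from the same library and libraries come in pairs of a group, so r is a description. With the marker mean as a covariate the difference between H3.1K36M and H3.1WT was 0.01. It passed with array weights (adjusted p = 0.018) and in a fit over those groups alone (adjusted p = 0.0221), at −0.44 in both. Of Tdgf1's transcript, 3.2% of the 100-base stretches are shared with the pseudogene Tdgf1-ps1.

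**Figure D3:**
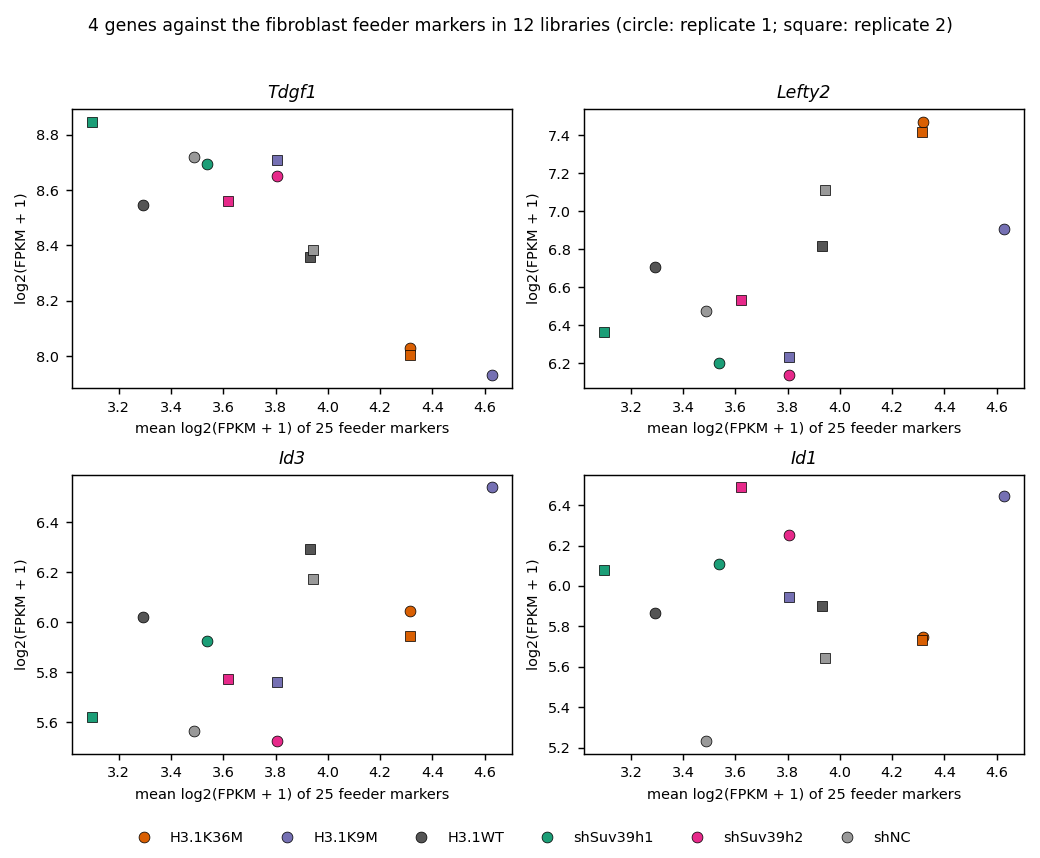
Level of Tdgf1, Lefty2, Id3 and Id1 as log2(FPKM + 1) (y axes, not from 0) against the mean log2(FPKM + 1) of 25 fibroblast feeder markers (x axis) in 12 libraries; colours give the group, circles replicate 1 and squares replicate 2. Tdgf1 falls along the axis (r = −0.90), Lefty2 and Id3 rise (0.65 and 0.64), and Id1 shows little relation (0.11).

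For the other genes Pearson's r with the same marker mean was 0.65 for Lefty1, 0.65 for Lefty2, 0.64 for Id3, 0.62 for Smad7, 0.51 for Bmp4, 0.21 for Id2, 0.11 for Id1 and −0.02 for Nodal (Spearman 0.70, 0.66, 0.64, 0.70, 0.48, −0.07, −0.06 and −0.06). Without the 2 farthest libraries r was 0.57, 0.72, 0.33, 0.86, 0.26, −0.63, −0.13 and 0.16 in the same order of genes. The marker mean was 4.32 and 4.31 in H3.1K36M and 4.63 and 3.80 in H3.1K9M, against 3.29 and 3.93 in H3.1WT. Of 23 tested feeder markers 3 rose in H3.1K36M over H3.1WT (Postn, Col6a2 and Col3a1), where 3.1% of all tested genes rose. All 23 had a positive log2 fold change there and in H3.1K9M over H3.1WT, where none passed.

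Bmp4, the BMP ligand, was highest in H3.1K9M and in shSuv39h2. Its level was 11.9 and 12.4 FPKM in H3.1K36M and 20.6 and 15.5 in H3.1K9M, against 9.93 and 12.3 in H3.1WT, and it was 10.8 and 12.03 FPKM in shSuv39h1 and 13.2 and 18.1 in shSuv39h2, against 8.67 and 11.7 in shNC. Both H3.1K9M libraries lay above both of H3.1WT, and both shSuv39h2 libraries above both of shNC. The log2 fold change was 0.65 in H3.1K9M over H3.1WT (SE 0.189, 95% interval 0.22 to 1.07, limma adjusted p = 0.264) and 0.57 in shSuv39h2 over shNC (SE 0.189, interval 0.15 to 0.99, adjusted p = 0.0885), so neither passed. With the feeder covariate the second was 0.57 (adjusted p = 0.035) and the first 0.43 (adjusted p = 0.36). Leaving out 1 library of the groups compared gave 0.45 to 0.84 in H3.1K9M over H3.1WT and 0.36 to 0.79 in shSuv39h2 over shNC, and none of these passed. Gm15217 and Gm15222 overlap Bmp4 on the other strand, and reads from them cannot be told apart where strand was not used.

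Id1, an inhibitor of E proteins and a direct BMP target, was the gene that rose. Its level was 75.3 and 88.8 FPKM in shSuv39h2, against 36.6 and 49.1 FPKM in shNC. Both shSuv39h2 libraries stood above the other libraries of the knockdown arm, and the mean was 82.0 ± 9.55 FPKM in shSuv39h2 and 42.9 ± 8.78 FPKM in shNC (SD, n = 2 each), a ratio of 1.91. The log2 fold change was 0.93 (SE 0.169, 95% interval 0.55 to 1.31, limma adjusted p = 0.00981). In shSuv39h1 the level was 68.0 and 66.5 FPKM, also above both shNC libraries, with a log2 fold change of 0.65 over the same shNC libraries (SE 0.169, adjusted p = 0.209), which passed with the feeder covariate (0.81, adjusted p = 0.0495). The hairpin groups differed by −0.28 (shSuv39h1 over shSuv39h2, 95% interval −0.66 to 0.10, adjusted p = 0.387).

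The Id1 call in shSuv39h2 was lost without replicate 1 of shNC (0.72, adjusted p = 0.0583), without replicate 2 of shSuv39h2 (0.81, adjusted p = 0.0777) and in a fit over those 4 libraries alone (adjusted p = 0.0585). Replicate 1 of shNC was the lowest of all 12 libraries for Id1, and with the feeder covariate the change was 0.93 (adjusted p = 0.0017), where the marker mean was 3.80 and 3.62 in shSuv39h2 and 3.49 and 3.94 in shNC. Of 23 tested feeder markers 2 fell in this comparison (Thy1 and Mmp2), while 14 had a positive log2 fold change. The median of the 23 was 0.08, against 0.04 for all tested genes. Of the 8 embryonic stem cell markers 3 rose in the same comparison (Klf4, Pou5f1 and Utf1). Nanog and Zfp42 were lower by group mean, at 176 and 334 FPKM in shSuv39h2, against 194 and 385 in shNC. The 8 markers summed to 4837 and 5087 FPKM in shSuv39h2, against 4491 and 4219 in shNC. Gata4, of 4 tested primitive endoderm markers, rose as well, and that list summed to 10.3 and 11.3 FPKM in shSuv39h2, against 7.24 and 8.41 in shNC. The part of these in the Id1 difference was not tested.

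In the overexpression arm Id1 was at 52.7 and 52.2 FPKM in H3.1K36M and at 86.2 and 60.5 in H3.1K9M, against 57.4 and 58.7 in H3.1WT. H3.1K9M lay above and H3.1K36M below both control libraries, with log2 fold changes of 0.31 (limma adjusted p = 0.515) and −0.14 (adjusted p = 0.678) over H3.1WT, and of −0.45 for H3.1K36M over H3.1K9M (adjusted p = 0.139), which passed without replicate 2 of H3.1K9M (−0.71, adjusted p = 0.0249) and with the feeder covariate (−0.49, adjusted p = 0.0308). Without replicate 1 of H3.1K9M it was −0.20. The difference between the control groups, H3.1WT over shNC, was 0.44 (SE 0.169, adjusted p = 0.356). The sources used here do not state whether the authors scaled both arms together, so this value and the order across arms carry that limit. By group mean the order was shSuv39h2, H3.1K9M, shSuv39h1, H3.1WT, H3.1K36M and shNC, and the 3 lower steps of it were between groups whose libraries did not overlap. Over the 12 libraries Id1 varied together with Bmp4 (Pearson's r 0.79, Spearman 0.68). Other BMP targets did so less by Pearson's r. With Bmp4 it was 0.34 for Id2 (Spearman 0.13), 0.35 for Id3 (0.09) and 0.55 for Smad7 (0.65). These values of r are a description, and the difference between the pairs was not tested.

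**Figure D4:**
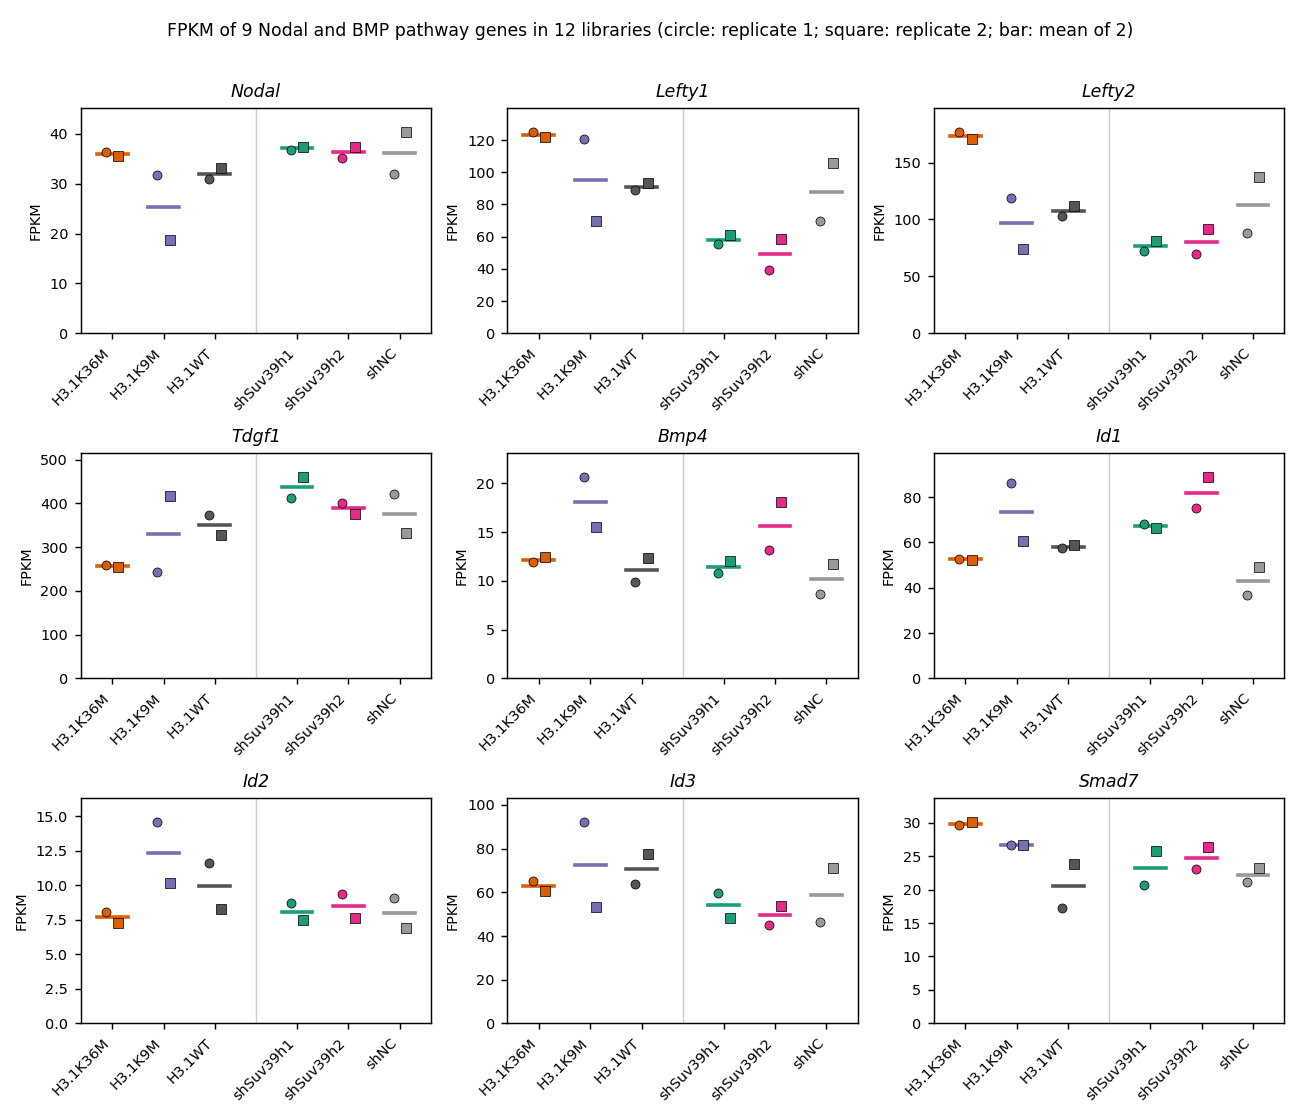
FPKM of the 9 genes (y axes, linear, from 0) in each library, with circles for replicate 1, squares for replicate 2 and bars for the mean of 2; groups run along the x axis, with the overexpression arm left of the line and the knockdown arm right of it. Id1 in shSuv39h2, at 75.3 and 88.8 FPKM, lies above shNC, at 36.6 and 49.1 FPKM, and both H3.1K36M libraries lie highest for Lefty1, Lefty2 and Smad7.

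Id2 and Id3 encode proteins of the same kind, and no test passed for either. Id2 was at 8.09 and 7.23 FPKM in H3.1K36M and at 14.6 and 10.1 in H3.1K9M, against 11.6 and 8.26 in H3.1WT, and at 8.69 and 7.49 FPKM in shSuv39h1 and 9.40 and 7.63 in shSuv39h2, against 9.04 and 6.88 in shNC. The H3.1K36M libraries lay below those of H3.1WT and of H3.1K9M, with a log2 fold change of −0.61 over H3.1K9M (SE 0.202, limma adjusted p = 0.103). That difference passed without replicate 2 of H3.1K9M (−0.85, adjusted p = 0.0395) and with the replicate number as a block (−0.61, adjusted p = 0.0123), and without replicate 1 of H3.1K9M it was −0.36 and did not pass. For shSuv39h2 over shNC the Id2 change was 0.09 with an interval of −0.36 to 0.54. Id3 was at 65.1 and 60.7 FPKM in H3.1K36M and at 92.1 and 53.2 in H3.1K9M, against 64.0 and 77.4 in H3.1WT, and at 59.8 and 48.3 FPKM in shSuv39h1 and 45.1 and 53.7 in shSuv39h2, against 46.3 and 71.2 in shNC. Its groups overlapped in all 7 comparisons. The Id3 change in shSuv39h2 over shNC was −0.22 (95% interval −0.80 to 0.36), and that of Id1 was 0.93 (0.55 to 1.31). The difference between the genes was not tested.

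Smad7, the inhibitory SMAD encoded on chromosome 18, was at 29.6 and 30.1 FPKM in H3.1K36M and at 26.7 and 26.6 in H3.1K9M, against 17.3 and 23.8 in H3.1WT. In the knockdown arm it was at 20.6 and 25.8 FPKM in shSuv39h1 and at 23.1 and 26.4 in shSuv39h2, against 21.1 and 23.3 in shNC. Both mutant histone groups lay above both H3.1WT libraries, and both H3.1K36M libraries above all others, while the hairpin groups overlapped shNC. The log2 fold change was 0.53 in H3.1K36M over H3.1WT (SE 0.148, 95% interval 0.20 to 0.87, limma adjusted p = 0.0758) and 0.38 in H3.1K9M over H3.1WT (interval 0.04 to 0.71, adjusted p = 0.392). The first passed without replicate 2 of H3.1WT (0.75, adjusted p = 0.0458), with the replicate number as a block (adjusted p = 0.0366) and with array weights (adjusted p = 0.0119). It was 0.31 without replicate 1 of H3.1WT and 0.45 with the feeder covariate (adjusted p = 0.201), and did not pass in either. The second was 0.16 without replicate 1 of H3.1WT and 0.60 without replicate 2. In shSuv39h2 over shNC the change was 0.15 (interval −0.18 to 0.48).

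Groups whose libraries did not overlap were counted as well. In H3.1K36M over H3.1WT 7 of the 9 genes did not overlap (Nodal, Lefty1, Lefty2, Smad7, Tdgf1, Id1 and Id2), where 65.9% of all tested genes did not, and in H3.1K36M over H3.1K9M there were 7 where the background was 52%. H3.1K9M over H3.1WT gave 3 against a background of 35.2%, shSuv39h1 over shNC 3 against 39.4%, shSuv39h2 over shNC 3 against 50.8%, shSuv39h1 over shSuv39h2 3 against 58.7% and H3.1WT over shNC 1 against 39.4%. In H3.1K9M, replicate 1 was 1.73 times replicate 2 for Lefty1 and Id3, 1.69 for Nodal and 1.60 for Lefty2, and replicate 2 was 1.72 times replicate 1 for Tdgf1. For Smad7 the higher over the lower was 1.00.

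Other genes of the pathways were taken from 11 lists of ligands, inhibitors, receptors, SMADs and targets, 75 genes beside the 9, of which 63 were tested. In H3.1K36M over H3.1WT 4 of the 63 fell and none rose, where 1.74% of all tested genes fell and 3.1% rose. Over all tested genes the calls there were 406 higher and 228 lower, and 307 higher and 263 lower after quantile normalization. T (brachyury), Mixl1 and Eomes, transcription factors of the primitive streak, were 3 of 12 tested genes on the list of Nodal and SMAD2/3 targets, and the homeobox gene Msx2 was 1 of 12 on the list of BMP and SMAD1/5 targets. T fell to 0.642 and 0.981 FPKM in H3.1K36M, against 7.44 and 11.3 FPKM in H3.1WT (log2 fold change −2.50, SE 0.271, limma adjusted p = 0.00113). Mixl1 fell to 0.621 and 0.923 FPKM in H3.1K36M, against 3.09 and 4.10 in H3.1WT (−1.37, SE 0.192, adjusted p = 0.00455). Eomes fell to 2.02 and 1.84 FPKM in H3.1K36M, against 3.99 and 4.57 in H3.1WT (−0.85, adjusted p = 0.0109), and Msx2 to 1.02 and 1.06 FPKM in H3.1K36M, against 2.30 and 3.15 in H3.1WT (−0.86, adjusted p = 0.0166).

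The H3.1K36M libraries lay below those of H3.1WT for each of these 4 genes, while Lefty1, Lefty2, Nodal and Smad7, on the same list of Nodal and SMAD2/3 targets, lay above them. That list had a median log2 fold change of −0.16, and all tested genes one of 0.03. T passed in all 22 alternative fits. The other genes lost the call in some of theirs, Mixl1 without replicate 1 of H3.1K36M (adjusted p = 0.0772), Msx2 without replicate 2 of H3.1WT, without 1 or the other H3.1K36M library and in a fit over the overexpression arm alone, and Eomes without any 1 of the 4 libraries. T, Mixl1 and Eomes also mark primitive streak cells, and 6 markers of those cells summed to 4.47 and 5.01 FPKM in H3.1K36M, against 17.1 and 23.2 in H3.1WT. The 7 trophectoderm markers summed to 33.9 and 31.9 FPKM in H3.1K36M, against 114 and 119 in H3.1WT, and of the 5 tested 4 fell and 1 rose. Of the 8 embryonic stem cell markers 1 rose (Nanog, at 1.96 times its H3.1WT level, limma adjusted p = 0.0129), and 7 had a positive log2 fold change. The part of these cell types in the differences was not tested.

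**Figure D5:**
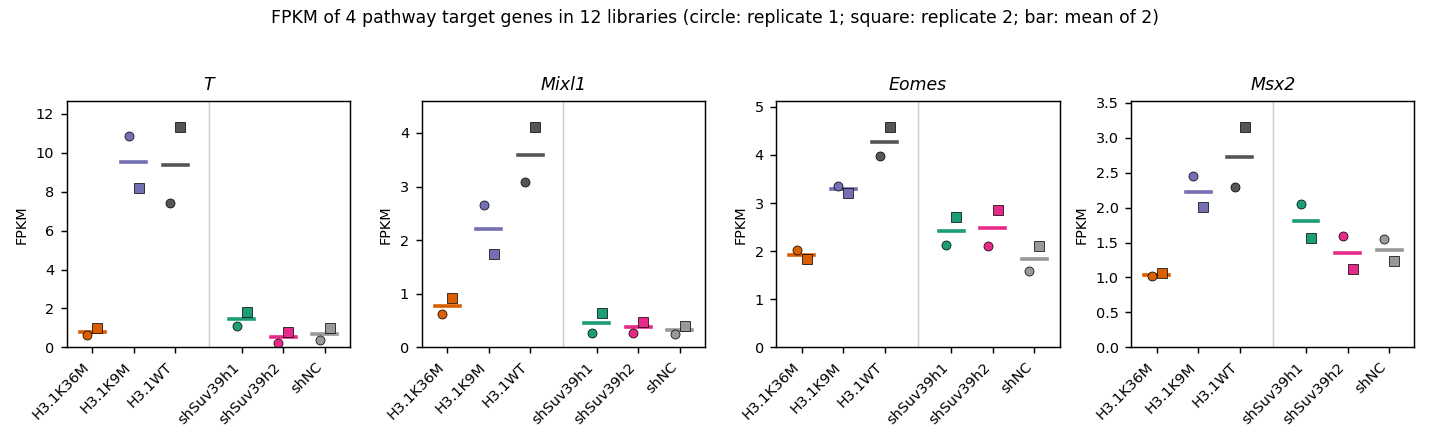
FPKM of T, Mixl1, Eomes and Msx2 (y axes, linear, from 0) in each library, with circles for replicate 1, squares for replicate 2 and bars for the mean of 2; the overexpression arm is left of the line in each panel. H3.1K36M lies below H3.1WT for all 4 genes, and T is at 0.642 and 0.981 FPKM there, against 7.44 and 11.3 FPKM in H3.1WT.

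In H3.1K36M over H3.1K9M 6 of the 63 fell and none rose, where 2.67% of all tested genes fell and 5.57% rose (730 higher and 350 lower genes, and 545 and 449 under median-of-ratios scaling). T (0.642 and 0.981 FPKM in H3.1K36M, against 10.9 and 8.22 in H3.1K9M, limma adjusted p = 0.000581), Mixl1, Eomes, Msx2 and Msx1 were joined by Skil, a SMAD corepressor gene, at 21.8 and 21.3 FPKM in H3.1K36M, against 25.6 and 27.8 FPKM in H3.1K9M (−0.29, adjusted p = 0.042). Without 1 or the other H3.1K36M library only T of the 6 passed. Over all alternative fits Msx1 lost the call in 15 of 21, Eomes in 13 of 21 and Skil in 12 of 22. Mixl1 and Msx2 lost it in 7 of 21 each. Of 5 tested trophectoderm markers 4 fell and 1 rose in the same comparison, and that list summed to 33.9 and 31.9 FPKM in H3.1K36M, against 83.3 and 113 in H3.1K9M. Of the 8 embryonic stem cell markers 4 rose (Nanog, Esrrb, Zfp42 and Klf4), with Nanog at 3.07 times its H3.1K9M level. Pou5f1 and Utf1 were lower by group mean, at 634 and 213 FPKM in H3.1K36M, against 680 and 229 in H3.1K9M. The part of these cell type markers in the differences was not tested. None of the 63 passed in H3.1K9M over H3.1WT. An unadjusted p under 0.05 was found for 4 of them, where 11.2% of all tested genes had one. H3.1K9M libraries had 10.9 and 8.22 FPKM of T, against 7.44 and 11.3 in H3.1WT. The count was 3 without replicate 2 of H3.1K9M.

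In shSuv39h2 over shNC 3 of the 63 rose and none fell, where 5.35% of all tested genes rose (701 higher and 615 lower genes, and 538 and 742 under median-of-ratios scaling). Foxh1, the DNA-binding partner of SMAD2 and SMAD3, was at 27.3 and 29.1 FPKM in shSuv39h2, against 24.0 and 22.3 in shNC (0.27, SE 0.0748, limma adjusted p = 0.0481). Tgif1, a corepressor of SMAD signalling, was at 80.7 and 83.8 FPKM in shSuv39h2, against 63.5 and 65.7 in shNC (0.34, adjusted p = 0.0325). Tcf3, an E protein that ID proteins bind, was at 49.6 and 51.1 FPKM in shSuv39h2, against 37.7 and 42.4 in shNC (0.33, adjusted p = 0.0306). The libraries did not overlap for any of these, and the changes were smaller than that of Id1. The count was 0 or 1 when any 1 library outside H3.1K9M was left out. Of the 63, Foxh1 alone passed between the hairpins, at 22.2 and 21.8 FPKM in shSuv39h1, against 27.3 and 29.1 FPKM in shSuv39h2 (−0.34, adjusted p = 0.0288), a call lost without any 1 library outside H3.1K9M and shNC. Of all tested genes 2% fell and 4.56% rose in that comparison. None of the 63 passed in shSuv39h1 over shNC. An unadjusted p under 0.05 was found for 5 of them, where 10.6% of all tested genes had one.

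The control groups differed in the streak genes. T was at 7.44 and 11.3 FPKM in H3.1WT, against 0.372 and 1.01 in shNC (2.62, SE 0.271, limma adjusted p = 0.00524), Mixl1 at 3.09 and 4.10 FPKM in H3.1WT, against 0.246 and 0.398 in shNC (adjusted p = 0.00616), and Eomes at 3.99 and 4.57 FPKM in H3.1WT, against 1.59 and 2.10 in shNC (adjusted p = 0.0415). These 3 of the 63 rose and none fell, where 0.214% of all tested genes rose and 0.122% fell, and none of the 3 passed without replicate 2 of H3.1WT or without replicate 1 of shNC. Over all alternative fits Eomes lost the call in 11 of 20, Mixl1 in 3 of 20 and T in 3 of 21. H3.1K36M, at 0.642 and 0.981 FPKM of T, thus lay within the range of the shNC libraries. Of 5 tested trophectoderm markers 3 rose in H3.1WT over shNC (Krt8, Cdx2 and Krt18), and that list summed to 114 and 119 FPKM in H3.1WT, against 45.8 and 39.4 in shNC. Their part in the difference was not tested.

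No gene passed in any comparison on the lists of Nodal and activin ligands, their receptors, BMP ligands, BMP antagonists, BMP receptors, or TGF-beta ligands and receptors. In H3.1K36M over H3.1WT the smallest p on the first of these lists was that of Pcsk6, a proprotein convertase, which averaged 8.07 FPKM in H3.1K36M and 6.18 FPKM in H3.1WT (limma adjusted p = 0.116). Among the BMP receptors it was that of Bmpr2, at 7.82 FPKM in H3.1K36M and 5.71 FPKM in H3.1WT (adjusted p = 0.12). Furin, another convertase, led the ligand list in H3.1K9M, with 12.7 FPKM there and 9.41 FPKM in H3.1WT (adjusted p = 0.413). In shSuv39h1 that place was held by Gdf1, a ligand of the same family as Nodal, with 6.14 FPKM in shSuv39h1 and 3.83 FPKM in shNC (adjusted p = 0.356). Bmpr1b, a type I BMP receptor, led its list in shSuv39h2, with 0.526 FPKM there and 0.947 FPKM in shNC (adjusted p = 0.121).

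Pairs of the 9 genes were also set against each other over the 12 libraries, as a description. Lefty1 and Lefty2 had a Pearson's r of 0.90 (Spearman 0.94), and each ran against Tdgf1, at −0.83 and −0.86. Id1 and Id3 had an r of 0.16, Id1 and Id2 0.32, and Id2 and Id3 0.35. Among 8215 genes with a mean of at least 5 FPKM, those most like Lefty2 were Zfp281 (r 0.95), Nkain1 and Atp1b3, and those most like Lefty1 were Fgf17 (0.93), Cr1l and Irgm1. For Tdgf1 they were Aldoc (0.95), Dync2li1 and Myh14, for Nodal Tsc2 (0.93), Rcor2 and Agpat2, and for Bmp4 Maz (0.94), Ubl3 and Rab31. For Id1 they were Znhit2 (0.95), Slc25a38 and Use1, for Id2 Pdlim7 (0.91), Sltm and Kbtbd2, for Id3 Tnrc6a (0.92), Abracl and Ino80c, and for Smad7 Pdha1 (0.90), Cdk6 and Kcmf1. These genes were picked for the highest r among the candidates, so the size of r is set in part by that choice.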

How the data were processed

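mRNA of 12 libraries was analysed. The values are FPKM per gene symbol, deposited by the authors in 1 file per library. The unit was inferred from the values, which step with transcript length and depth. Per the submitters' processing notes, TopHat2 2.0.13, Cuffdiff 2.2.1 and the mm10 build were used. The sources used here do not state their settings, the annotation, strand handling or any scaling across libraries. Per the labels' protocols, Trizol RNA was used, and both the NEBNext Ultra and TruSeq v2 kits are named, with no assignment to libraries. Depth was approximated from low values: 1 FPKM of a 2 kb transcript stood for about 41.8 to 55.5 fragments. This is a rough figure, since 28.0% to 33.7% of low values were whole within 0.05, where chance gives 10%. The lowest value of the 9 genes, that of Id2, then rests on about 330 fragments, a counting error below the spread between replicates. Between 12126 and 12518 genes per library reached 1 FPKM, and no pair of libraries was identical.

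Tests used the 13109 genes that reached 1 FPKM in 2 or more libraries. limma 3.58.1 (R 4.3.3), with an intensity trend, was fitted to log2(FPKM + 1) over all 6 groups (residual df 6, prior df 3.66). This scale understates changes of low genes. P-values were adjusted by Benjamini-Hochberg over all tested genes, and the steps were tested on simulated data. Whether replicates came from separate cultures is not in the labels, and the spread behind the p-values is that between these libraries only and may be technical. Ratios are of mean FPKM. Non-members were named by smallest p: up to 4 per list and comparison among those that passed, otherwise 1. The genes, lists, tests and alternatives were chosen with earlier results of these data known. Alternatives were a replicate block, a feeder covariate, array weights, scaling by quantiles or by median of ratios, a pseudocount of 0.1, a filter of 5 FPKM or none, fewer groups, and each library left out. Gene models are from GENCODE M21.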

Additional observations from a re-analysis of the deposited data

How the results depend on the processing

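Under 10 other settings, 588 of 621 log2 fold changes of the 9 genes kept their direction and their side of the threshold, and 703 of 756 did when each of the 12 libraries was left out. Many of these values could not change direction, so the shares do not measure stability. Leaving out a library outside the groups compared does not change a log2 fold change. Nor do the filters, the replicate block, array weights or fits of fewer groups. Only Id1 in shSuv39h2 over shNC had a call to lose. The count of genes passing among the 9, 0 in H3.1K36M over H3.1WT, was 3 with array weights (Lefty2, Tdgf1 and Smad7), 1 with the replicate block (Smad7) and 3 in a fit of these groups alone (Lefty1, Lefty2 and Tdgf1), and 0 to 1 with a library left out. In H3.1K36M over H3.1K9M (0) it was 1 with the replicate block (Id2), 4 with the feeder covariate (Nodal, Lefty2, Bmp4 and Id1) and 0 to 3 with a library left out. In shSuv39h1 over shNC (0) the covariate gave 1 (Id1). In shSuv39h2 over shNC (1) it gave 3 (Lefty1, Bmp4 and Id1), a fit of these groups alone 0, and leaving out a library 0 to 2. The replicate numbers were not taken to pair libraries, since the labels do not say that they do. The differences between replicates correlated at −0.38 to 0.52 between groups, which does not settle it. The replicate block changed no other of these counts. Of the 63 other pathway genes the number that passed was 0 to 3 in H3.1K9M over H3.1WT, where 0 did as reported, 1 to 18 in H3.1K36M over H3.1WT (4), 1 to 10 in H3.1K36M over H3.1K9M (6), 0 in shSuv39h1 over shNC (0), 0 to 4 in shSuv39h2 over shNC (3), 0 to 4 in shSuv39h1 over shSuv39h2 (1) and 0 to 6 in H3.1WT over shNC (3). Where a group kept 1 library, that library was assumed to vary like the other groups. Calls over all 13109 tested genes moved as well. In H3.1K36M over H3.1WT there were 634 as reported, 2983 with array weights and 595 with the replicate block. The fit of these groups alone gave 1907 of 12568. With the feeder covariate there were 2004 in H3.1K36M over H3.1K9M (1080 as reported). The covariate gave 58 in shSuv39h1 over shNC (19 as reported) and 2302 in shSuv39h2 over shNC (1316). The causes were not tested.

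Directions that turned were those of values that had not passed. With the feeder covariate the log2 fold change in H3.1K9M over H3.1WT was −0.30 for Lefty1 and 0.25 for Tdgf1; in H3.1K36M over H3.1WT −0.20 for Nodal, 0.011 for Tdgf1 and −0.13 for Bmp4; in shSuv39h1 over shNC −0.032 for Tdgf1 and 0.21 for Id3; in shSuv39h1 over shSuv39h2 0.15 for Lefty2 and −0.085 for Tdgf1; and 0.020 for Lefty2 in H3.1WT over shNC. Quantile and median-of-ratios scaling gave 0.0072 and 0.013 for Id3 in H3.1K9M over H3.1WT, −0.016 and −0.020 for Id2 in shSuv39h1 over shNC, and −0.050 and −0.034 for Nodal in shSuv39h2 over shNC. Median-of-ratios scaling gave −0.0058 for Nodal in shSuv39h1 over shNC.

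Leaving out a library turned 41 values. The range of the log2 fold change is given for each gene in which that happened. In H3.1K9M over H3.1WT the range was for Lefty1 −0.38 to 0.40, Lefty2 −0.53 to 0.15, Tdgf1 −0.52 to 0.26 and Id3 −0.40 to 0.38. In H3.1K36M over H3.1WT the range was for Bmp4 −0.018 to 0.27. In H3.1K36M over H3.1K9M the range was for Tdgf1 −0.69 to 0.085 and Id3 −0.54 to 0.24. In shSuv39h1 over shNC the range was for Nodal −0.12 to 0.21, Bmp4 −0.030 to 0.36, Id2 −0.15 to 0.20, Id3 −0.40 to 0.21 and Smad7 −0.10 to 0.21. In shSuv39h2 over shNC the range was for Nodal −0.15 to 0.18, Tdgf1 −0.11 to 0.22, Id2 −0.084 to 0.27 and Id3 −0.52 to 0.085. In shSuv39h1 over shSuv39h2 the range was for Nodal −0.011 to 0.077, Lefty1 −0.015 to 0.54, Lefty2 −0.25 to 0.15, Id2 −0.20 to 0.071, Id3 −0.027 to 0.28 and Smad7 −0.25 to 0.061. In H3.1WT over shNC the range was for Nodal −0.32 to 0.0038, Lefty1 −0.21 to 0.38, Lefty2 −0.35 to 0.29, Tdgf1 −0.27 to 0.069, Bmp4 −0.071 to 0.32, Id3 −0.016 to 0.59 and Smad7 −0.34 to 0.10.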
